A study of Mus musculus with 6 samples.

Results

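Osteoclasts, the cells that resorb bone, form from precursors of the macrophage lineage under signals that osteoblasts release or carry on their surface. The 9 genes described here encode such signals in mouse: *Tnfrsf11b*, *Tnfsf11*, *Csf1*, *Il6*, *Il34*, *Sema3a*, *Efnb2*, *Ephb4* and *Lif*. They were taken by name for their role as osteoblast factors that act on osteoclast formation, and the rule uses no measured value. Of the 9, 7 were among the 11234 genes with expression values, while *Tnfsf11* and *Il6* were not analysed here. Every gene in the table had a mean of at least 0.5 FPKM in at least 1 group, so the missing pair carries no value and cannot be called silent.

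The cells were MC3T3-E1, a clonal mouse preosteoblast line (strain C57BL/6, passage 4), which can be taken to osteoblasts in culture. The study names no other cells beside it. After 24 h without serum, the cells were given complete medium. In 3 samples it held 100 μmol/L cyanidin-3-O-glucoside (C3G), a plant anthocyanin, and in 3 it did not. RNA was taken 24 h later. The study calls the controls vehicle-treated in its abstract and untreated elsewhere, without naming a vehicle, and they are called untreated here. The value of a gene is its FPKM, a number of sequenced fragments scaled for the length of the gene and for the size of the library, which puts genes of different length on 1 scale. It does not remove the differences between libraries that go with GC content, described below. The labels number the libraries 1 to 3 in each group without stating that they came from separate cultures, so the p values below measure only the spread between these libraries.

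RANKL, the product of *Tnfsf11*, drives osteoclast formation through the receptor RANK, and osteoprotegerin, the product of *Tnfrsf11b*, is a secreted decoy receptor that binds RANKL and blocks it. CSF1 and IL-34 are ligands of the same receptor, CSF1R, on which osteoclast precursors depend for survival and growth. IL-6 and LIF signal through gp130 and raise RANKL in osteoblasts, whereas semaphorin 3A restrains osteoclast formation through neuropilin 1 and plexin A. Ephrin B2 and its receptor EphB4 carry contact signals between osteoblasts and osteoclasts.

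Control replicate 1 stood apart from the other 5 libraries. Across all genes, its log2(FPKM + 1) values had a Pearson's r of 0.886 to 0.939 with the others, against 0.968 to 0.992 among those others, and the departure followed the GC content of the transcript. Osteoblast lineage genes were present in every library: *Runx2*, the master transcription factor of the lineage, had 5.46 to 9.07 FPKM and *Sp7*, which acts downstream of it, had 0.237 to 0.857 FPKM. *Col1a1*, which encodes the main chain of bone collagen, had 4432 FPKM in control replicate 1 and 922.6 to 1478 FPKM in the others. *Ibsp*, *Alpl* and *Bglap* were not analysed here. Of 12 osteoclast markers 4 had values, none of them *Acp5*, *Csf1r*, *Tnfrsf11a* or *Calcr*. Those 4 were *Ctsk*, *Itgb3*, *Nfatc1* and *Mmp9*, with means over all libraries of 30.3, 13.6, 3.61 and 1.39 FPKM. Of 10 macrophage markers 3 had values, none of them *Ptprc* or *Adgre1*. Those 3 were *Lyz2*, *Cd14* and *Cd68*, with means of 43.7, 2.07 and 0.772 FPKM.

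The start regions of *Sema3a* and *Ephb4* are shown because the longest transcripts of these genes have the lowest and the highest GC content of the 7 and because the genes, as given below, departed in opposite directions in the first replicate of both groups. Each sequence holds 250 bases before and 50 bases after the annotated start, 5′ to 3′ on the strand of the gene, from RefSeq on GRCm38.p6, in which 5 of the 7 genes were matched. Capitals mark, on either strand, a TATA box (TATAAA), the element spelled CCAAT, the GC box with the letters GGGCGG or an AP-1 site with the letters TGANTCA, and no base here belonged to more than 1 of them. *Sema3a* lies at chr5:13396534-13396833 on the plus strand and *Ephb4* at chr5:137349859-137350158 on the plus strand.
Sema3a: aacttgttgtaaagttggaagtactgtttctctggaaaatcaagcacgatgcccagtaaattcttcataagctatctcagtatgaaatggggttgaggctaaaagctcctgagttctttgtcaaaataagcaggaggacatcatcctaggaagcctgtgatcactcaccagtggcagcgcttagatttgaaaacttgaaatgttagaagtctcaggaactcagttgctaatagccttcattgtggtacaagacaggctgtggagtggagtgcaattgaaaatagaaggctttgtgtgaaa
Ephb4: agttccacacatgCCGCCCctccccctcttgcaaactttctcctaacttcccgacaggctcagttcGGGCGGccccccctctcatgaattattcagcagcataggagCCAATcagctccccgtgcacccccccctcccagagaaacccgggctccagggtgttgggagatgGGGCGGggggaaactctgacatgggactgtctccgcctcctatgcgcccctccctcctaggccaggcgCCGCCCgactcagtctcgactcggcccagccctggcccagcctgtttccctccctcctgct
The *Sema3a* window had a GC content of 41.3% with 2 CG dinucleotides and held none of the motifs, and other annotated transcripts of the gene begin elsewhere. The *Ephb4* window had a GC content of 64.7% with 14 CG dinucleotides, 4 GC boxes and 1 CCAAT box. Over all 32851 start regions of the same length the median GC content was 52.7%, and 35.7% of them held a GC box and 37.4% a CCAAT box. The *Csf1* window held 2 GC boxes and none of the other motifs. The *Lif* window held 1 AP-1 site, which 7.81% of all windows hold. The *Efnb2* window, the richest of the 5 in GC at 72.3%, held 3 GC boxes, 2 CCAAT boxes and 1 TATA box, the last of which 13.6% of all windows hold.

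The 7 genes covered a wide range of levels. By the mean over all 6 libraries, *Csf1* was highest at 58.3 FPKM, above 93.7% of all listed genes, and *Ephb4* came next at 31.9 FPKM, above 87.2%. *Sema3a* followed with 9.06 FPKM, *Tnfrsf11b* with 5.50 FPKM, *Il34* with 4.68 FPKM and *Efnb2* with 3.44 FPKM. *Lif* was at 0.811 FPKM, above 4.69% of listed genes, and was the only one of the 7 with a mean under 1 FPKM. *Csf1* exceeded *Ephb4* in 6 of 6 libraries and *Ephb4* exceeded *Sema3a* in 6 of 6, in both cases without overlap of their ranges. *Sema3a* lay above *Tnfrsf11b* in 6 of 6 libraries although their ranges overlapped, by 1.49 to 2.12 times within a library. The order of *Tnfrsf11b* and *Il34* was not fixed, since *Tnfrsf11b* was the higher in 4 of 6 libraries, and *Il34* exceeded *Efnb2* in 5 of 6. *Efnb2* exceeded *Lif* in 6 of 6 with no overlap.

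**Figure D1:**
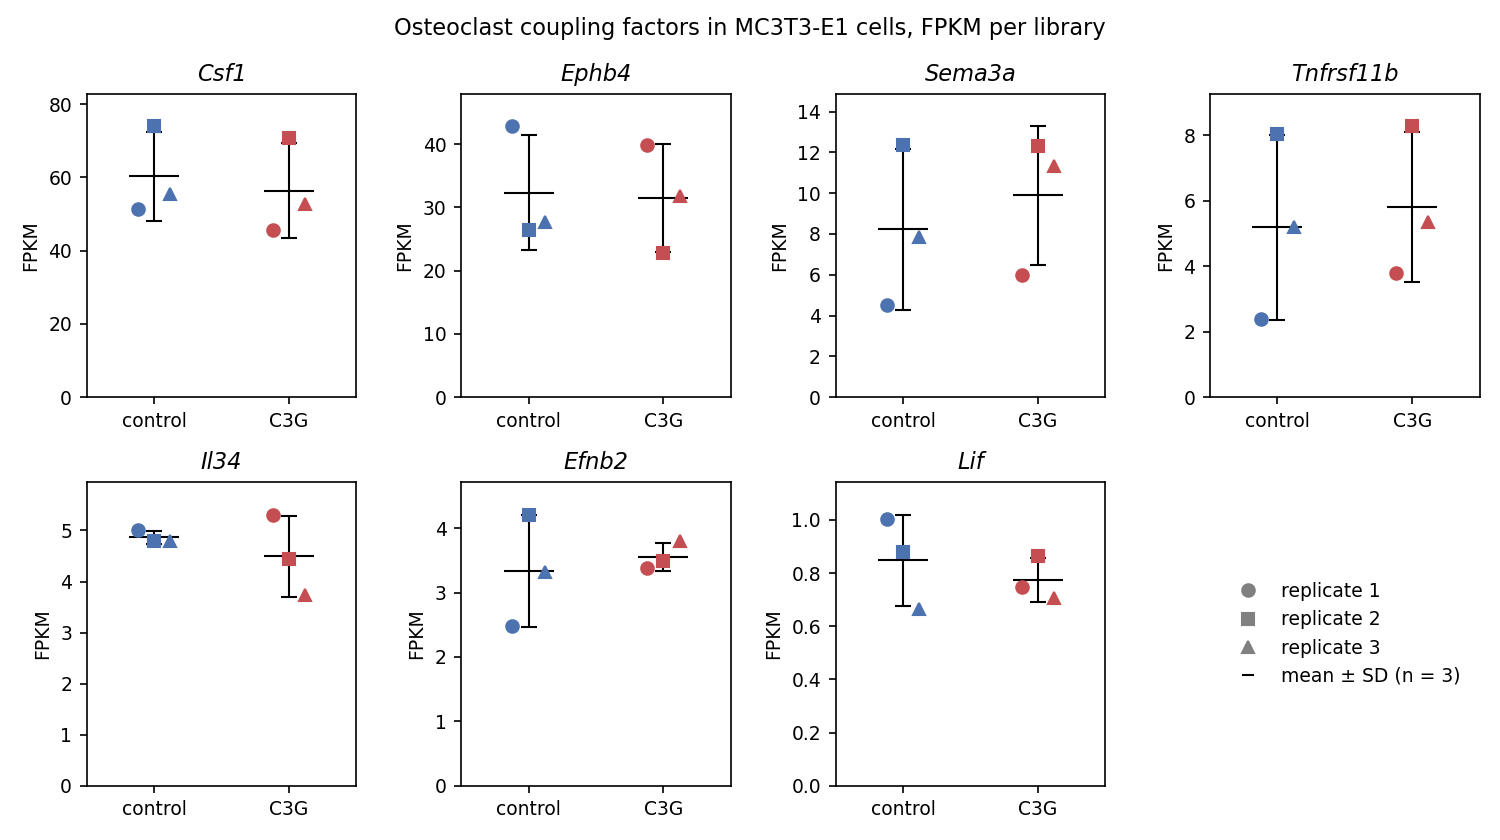
FPKM of each of the 7 genes in every library, with untreated (control, blue) and C3G-treated (red) MC3T3-E1 cells side by side. Symbols give the replicate number, and the bar and whiskers are the mean and SD of 3 libraries. The groups overlap in all 7 genes, and replicate 1 is the lowest and replicate 2 the highest of each group in *Csf1*, *Sema3a* and *Tnfrsf11b*.

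The design asks whether 24 h of C3G changed gene expression. In none of the 7 osteoclast coupling factors was the difference between C3G-treated and untreated cells larger than the spread of the replicates. Differences were tested with limma on log2(FPKM + 1) over all genes, and calling a gene took a two-sided p under 0.05, unadjusted, together with a fold change of 1.2 or more, the thresholds the study uses. With limma, 0 of the 7 were called and 0 had an unadjusted p under 0.05, and an ordinary linear model likewise called 0. The background share is small as well: 0.65% of all 11234 genes were called in either direction, 0.401% as higher and 0.249% as lower. With limma 0 passed Benjamini-Hochberg adjustment, against 74 at an unadjusted p under 0.05. That is a smaller share than the 0.05 expected of unchanged genes, and the number was 147 without control replicate 1. With so few genes called, 0 of 7 does not show that these genes were unchanged. The 73 called genes were 45 higher and 28 lower, a split that became 30 and 30 with quantile normalization, 67 and 68 with a GC correction and 119 and 127 with that correction and the block. With the replicate number as a block, 1.5% of all genes and again 0 of the 7 were called. The groups overlapped in all 7, where they did not overlap in 4.02% of all genes. On the log2 scale 3 of the 7 had a higher mean with C3G and 4 a lower one, and their median difference was -0.04, against 0.06 over all genes. In a bulk culture, fewer cells that express a gene and less RNA per cell cannot be told apart.

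*Tnfrsf11b* (ENSMUSG00000063727.3, chromosome 15 of GRCm38, 54250619 to 54278484, minus strand) is the osteoprotegerin gene. In replicate order its FPKM was 2.37, 8.03 and 5.18 without C3G, then 3.78, 8.28 and 5.34 with it. Replicate 1 was the lowest and replicate 2 the highest in both groups, and the groups covered nearly the same range. Treated libraries averaged 5.80 ± 2.29 FPKM (SD, n = 3) and untreated ones 5.19 ± 2.83 FPKM (SD, n = 3). This was a log2 difference of 0.19 ± 0.41 (standard error), with a 95% interval of -0.77 to 1.16 (limma p = 0.650, adjusted p = 0.992, exact permutation p = 0.7). That interval runs from 0.585 to 2.23 times the control on the FPKM + 1 scale. With the replicate number as a block it narrowed to -0.21 to 0.60 on the log2 scale and still held 0. The exact permutation test of 3 libraries against 3 cannot go below p = 0.1 for any gene.

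*Csf1* (ENSMUSG00000014599.10, chromosome 3, 107741048 to 107760469, minus strand) encodes the cytokine that keeps osteoclast precursors alive. Untreated libraries 1 to 3 held 51.4, 74.0 and 55.5 FPKM, and their treated counterparts 45.7, 70.8 and 52.6 FPKM. The C3G library was the lower in each of the 3 same-numbered pairs, with log2 differences of -0.16, -0.06 and -0.08, and both groups ran from a low replicate 1 to a high replicate 2. Averages were 56.4 ± 13.0 FPKM (SD, n = 3) after treatment and 60.3 ± 12.1 FPKM (SD, n = 3) in untreated libraries, a log2 difference of -0.10 ± 0.23 (standard error), with a 95% interval of -0.65 to 0.44 (limma p = 0.673, exact permutation p = 0.6). With the replicate number as a block the interval narrowed to -0.40 to 0.20 and still held 0. The direction was shared by all 3 pairs in *Csf1* (lower) and *Tnfrsf11b* (higher), which is 2 of the 7, beside 25.9% of all genes.

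*Il34* (ENSMUSG00000031750.15, chromosome 8, 110741829 to 110805924, minus strand) encodes the other ligand of CSF1R. Its values in replicate order were 5.00, 4.802 and 4.79 FPKM in untreated cells, then 5.31, 4.43 and 3.73 FPKM in treated cells. The control values were, relative to their mean, the tightest of the 7 genes, at 4.86 ± 0.121 FPKM (SD, n = 3), and the treated values, at 4.49 ± 0.792 FPKM (SD, n = 3), spread to both sides of them. The log2 fold change was -0.10 with a 95% interval of -0.50 to 0.29 (limma p = 0.555, exact permutation p = 0.5). *Csf1* was 8.61 to 16.0 times as high as *Il34* within a library, with a mean ratio of 12.4 ± 2.67 (SD, n = 3) in untreated and 12.9 ± 3.83 (SD, n = 3) in treated cells. Exons of *Il34* overlap those of *Gm15894* and *Gm15895* on the opposite strand, and whether the counting used the strand is not stated, so its level is uncertain.

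*Lif* (ENSMUSG00000034394.14, chromosome 11, 4257557 to 4272514, plus strand) was the gp130 cytokine of the group with values. Replicates 1 to 3 stood at 1.00, 0.878 and 0.664 FPKM untreated and at 0.748, 0.865 and 0.705 FPKM treated, so that all C3G libraries lay within the range of the controls. Treated libraries averaged 0.773 ± 0.0828 FPKM (SD, n = 3) and untreated ones 0.849 ± 0.172 FPKM (SD, n = 3). The log2 difference was -0.06 with a 95% interval of -0.36 to 0.24 (limma p = 0.665, exact permutation p = 0.6), the narrowest interval of the 7 in a gene where adding 1 to the FPKM dampens any change.

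*Sema3a* (ENSMUSG00000028883.17, chromosome 5, 13125414 to 13602565, plus strand) encodes semaphorin 3A, which protects bone. Untreated libraries 1 to 3 held 4.50, 12.4 and 7.84 FPKM, and treated libraries 1 to 3 held 6.00, 12.3 and 11.3 FPKM. Replicate 1 was the lowest in both groups, replicate 2 was nearly the same in both, and the pairs numbered 1 and 3 were higher with C3G. This gene had the largest log2 difference of the 7, its mean going from 8.24 ± 3.95 FPKM (SD, n = 3) without C3G to 9.89 ± 3.40 FPKM (SD, n = 3) after it. The log2 difference of 0.27 ± 0.39 (standard error) had a 95% interval of -0.65 to 1.196 (limma p = 0.502, adjusted p = 0.992, exact permutation p = 0.7). The replicate block narrowed the interval to -0.12 to 0.67, still with 0 inside it. Of the 75-base stretches of its longest transcript, 1.64% occur in transcripts of other genes.

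*Efnb2* (ENSMUSG00000001300.16, chromosome 8, 8617434 to 8661242, minus strand) encodes the ephrin ligand. In replicate order it measured 2.47, 4.21 and 3.32 FPKM without C3G, then 3.38, 3.48 and 3.80 FPKM with it. All treated libraries lay between the lowest and the highest control, with averages of 3.55 ± 0.219 FPKM (SD, n = 3) after treatment and 3.33 ± 0.869 FPKM (SD, n = 3) in untreated libraries. The log2 fold change was 0.09 with a 95% interval of -0.36 to 0.54 (limma p = 0.651, exact permutation p = 0.7).

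*Ephb4* (ENSMUSG00000029710.15, chromosome 5, 137350109 to 137378669, plus strand) encodes the receptor of ephrin B2. Replicates 1 to 3 stood at 42.9, 26.5 and 27.7 FPKM untreated and at 39.8, 22.9 and 31.8 FPKM treated. Here replicate 1 was the highest library of each group, the reverse of *Sema3a* and *Tnfrsf11b*. Treated libraries averaged 31.5 ± 8.48 FPKM (SD, n = 3) and untreated ones 32.4 ± 9.12 FPKM (SD, n = 3), with a log2 difference of -0.04 and a 95% interval of -0.69 to 0.61 (limma p = 0.890, exact permutation p = 0.9). The receptor exceeded its ligand in every library, by 6.29 to 17.3 times, and that ratio was 10.7 ± 5.87 (SD, n = 3) in untreated and 8.90 ± 2.65 (SD, n = 3) in treated cells. The higher untreated mean came from control replicate 1 at 17.3, since control replicates 2 and 3, at 6.29 and 8.36, lay below the treated mean. Exons of *Ephb4* overlap those of *Zan* on the opposite strand, so the uncertainty named for *Il34* applies to it too.

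**Figure D2:**
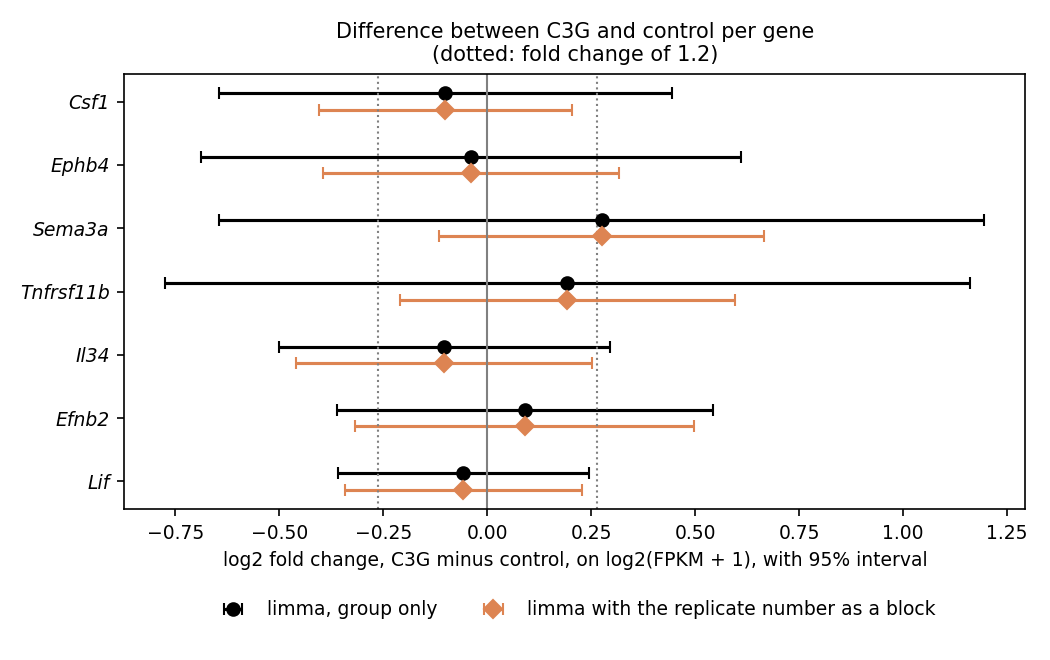
Log2 fold change (C3G minus control, on log2(FPKM + 1)) of each of the 7 genes with its 95% interval, from limma with group alone (black) and with the replicate number as a block (orange). Dotted lines mark the fold change of 1.2. All 14 intervals include 0, and the block narrows those of *Sema3a*, *Tnfrsf11b*, *Ephb4* and *Csf1* the most.

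The variation between replicates was larger than the difference between the groups, and in several of the 7 genes it went with the base composition of the transcript. Between the highest and the lowest library *Tnfrsf11b* differed 3.49-fold and *Sema3a* 2.75-fold, against 1.42-fold in *Il34* and 1.88-fold in *Ephb4*. The longest annotated transcript of *Sema3a* had a GC content of 40.8% and that of *Tnfrsf11b* 42.9%, below the median of 49.6% over all genes. In these genes control replicate 1 departed from the mean of control replicates 2 and 3 by -0.98 and -1.15 on the log2 scale. The longest transcript of *Ephb4* had a GC content of 58.4%, above that of 91.6% of genes, and its control replicate 1 lay 0.64 above the other controls. In the same order C3G replicate 1 differed from C3G replicates 2 and 3 by -0.87, -0.68 and 0.54.

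The same relation held over all genes. Genes with a GC content from 40% to under 45% had a median departure of -0.87 in control replicate 1 and -0.30 in C3G replicate 1, and those from 55% to under 60% had 0.47 and 0.25. *Csf1* lay below the median of its class: at 54.4% GC it was at -0.31 in control replicate 1 and -0.41 in C3G replicate 1, where genes from 50% to under 55% had medians of 0.06 and 0.13. *Lif* (53.0% GC), *Efnb2* (50.4% GC) and *Il34* (57.0% GC) departed by 0.18, -0.45 and 0.05 in the control and by -0.03, -0.08 and 0.32 in the treated replicate 1. *Efnb2* thus also lay below its class medians in both groups, *Il34* in the control only and *Lif* with C3G only. In C3G replicate 1, *Sema3a* (-0.87) and *Tnfrsf11b* (-0.68) lay below their class median of -0.30 too. The cause of the departure of replicate 1 was not tested.

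**Figure D3:**
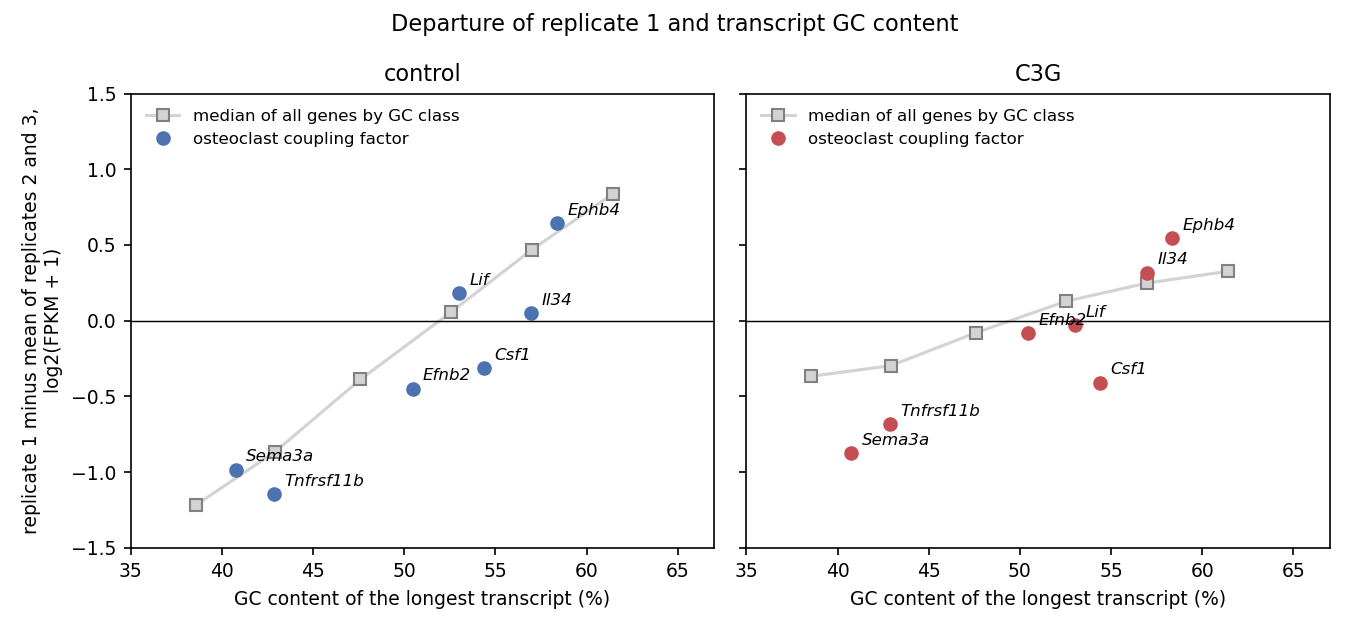
Replicate 1 minus the mean of replicates 2 and 3 (log2(FPKM + 1)) against the GC content of the longest transcript (%), for control (left) and C3G (right). Coloured points are the 7 genes and grey squares the medians of all genes by GC class. *Sema3a* and *Tnfrsf11b* sit low on the left and *Ephb4* high on the right in both panels. *Csf1* and *Efnb2* lie under the grey line in both panels, and *Sema3a* and *Tnfrsf11b* lie well under it in the C3G panel.

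Since control replicate 1 stood apart, the differences were also taken without it. The log2 fold change of *Tnfrsf11b* then went from 0.19 to -0.19, that of *Sema3a* from 0.27 to -0.05 and that of *Ephb4* from -0.04 to 0.18. *Efnb2* went from 0.09 to -0.06 and *Lif* from -0.06 to 0.0028, so the sign of 5 of the 7 differences turned, and none of the 7 had an unadjusted limma p under 0.05 without this library. C3G replicate 1 stayed in that comparison. The sign also turned without C3G replicate 2 in *Tnfrsf11b* (-0.06) and *Ephb4* (0.17), and in *Csf1* without control replicate 2 (0.05) or C3G replicate 1 (0.04). With replicates 2 and 3 only, which leaves out replicate 1 of both groups, *Sema3a* was at 0.24, *Tnfrsf11b* at 0.04, *Ephb4* at -0.0065, *Il34* at -0.19 and *Csf1* at -0.07, all with the sign they had over all libraries. *Efnb2* (-0.03) and *Lif* (0.01) turned there too. Correcting each library for GC content brought *Sema3a* to 0.06 and *Tnfrsf11b* to 0.02. Together with the replicate block this correction gave intervals of -0.21 to 0.26 for *Tnfrsf11b* and -0.32 to 0.15 for *Csf1*, the narrowest among the 7 genes in that fit.

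The partners of these factors on the receiving side were read in the same libraries. *Tnfrsf11a* (RANK), *Csf1r*, *Ptprz1*, *Il6ra* and *Plxna4* were not analysed here. *Lgr4*, which encodes a further receptor of RANKL, had 15.7 to 38.7 FPKM in the controls and 24.1 to 36.5 FPKM with C3G (log2 fold change 0.15). *Il6st*, the gp130 gene, had 3.91 to 9.94 FPKM in the controls and 4.78 to 8.21 FPKM with C3G (0.08 on the log2 scale). *Lifr*, the LIF receptor gene, had 6.60 to 15.4 FPKM and 10.5 to 16.7 FPKM (0.22 on the log2 scale). Both *Il6st* and *Lifr* were at higher FPKM than the ligand gene *Lif* in every library, and neither was called.

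Of the semaphorin receptors, *Nrp1* had 5.16 to 7.27 FPKM in the controls and 5.78 to 7.40 FPKM with C3G (0.07 on the log2 scale), and *Plxna1* had 31.4 to 40.2 FPKM and 34.0 to 38.8 FPKM (0.08 on the log2 scale). *Efnb1*, the other B-type ephrin with values, had 17.7 to 44.7 FPKM in the controls and 18.6 to 27.7 FPKM with C3G, and was thus above *Efnb2* in level in both groups. *Ephb2* had 1.77 to 2.75 FPKM in the controls and 1.88 to 2.20 FPKM with C3G, and *Ephb3* had 9.77 to 26.6 FPKM and 11.6 to 23.0 FPKM. Among the EphB receptors with values named here *Ephb4* had the highest mean. None of these 8 partners was called.

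Of the 141 genes in 7 pathway lists and 3 marker lists around these factors, 88 had values and 2 were called, beside 0.65% of all genes. Of the 8 genes of RANKL, osteoprotegerin and their receptors 6 had values and 0 were called by limma, with a median log2 fold change of 0.19. Among its genes with a mean of at least 1 FPKM, to which the smallest p values given for each list are limited, the smallest belonged to the TRAIL receptor genes *Tnfrsf22* (0.39), *Tnfrsf10b* (0.19) and *Tnfrsf23* (0.38). Of the 7 ligands and receptors of the CSF1 axis 3 had values, the third being the syndecan gene *Sdc1* (-0.10), and 0 were called. Of 17 gp130 cytokines, receptors and signalling genes 13 had values and 0 were called, with a median of 0.03. The cytokine gene *Ctf1* (0.22) and the kinase gene *Jak2* (0.20) came with *Lifr* at the lowest p in it.

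Of 20 semaphorins, plexins and neuropilins 11 had values, 0 were called and the median was 0.05. *Sema3a* itself had the lowest p there, followed by the receptor genes *Nrp2* (0.18) and *Plxnd1* (-0.17). Of 20 ephrins and Eph receptors 14 had values, 0 were called and the median was 0.01, with the lowest p values in *Efna1* (0.46), *Efna3* (0.20) and *Epha4* (0.21). *Efna1* passed both thresholds without control replicate 2, at 0.76 on the log2 scale. Of 14 receptors and regulators upstream of RANKL 11 had values and 0 were called. The receptor genes *Tnfrsf1a* (0.19), *Tnfrsf1b* (-0.12) and *Il1r1* (0.16) had the lowest p values of that list.

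Among 25 other osteoblast factors that act on osteoclasts 16 had values and 1 was called. This was *Cx3cl1*, which encodes the chemokine fractalkine and was lower in every C3G library, at 3.61 to 6.81 FPKM against 22.4 to 27.1 FPKM in the controls (log2 fold change -2.06, limma p = 4.43e-05, adjusted p = 0.497, exact permutation p = 0.1). *Il18* (0.50) and the chemokine gene *Cxcl12* (0.53) came next by p among genes of that list with a mean of at least 1 FPKM and were not called, and its median was 0.16. Without control replicate 1 *Il18* was at 0.26 and *Cxcl12* at 0.21. Among the marker lists, the osteoclast markers *Itgb3* (0.44), *Ctsk* (0.27) and *Nfatc1* (0.13) were not called, and the 4 with values summed to 29.5 to 53.2 FPKM in the controls and 48.5 to 61.1 FPKM with C3G, the lowest sum being that of control replicate 1. Without control replicate 1 the log2 fold change was 0.25 for *Itgb3*, -0.06 for *Ctsk* and -0.03 for *Nfatc1*. The lysozyme gene *Lyz2*, a macrophage marker, was the other call, at 45.1 to 54.3 FPKM with C3G against 32.1 to 40.4 FPKM without it (log2 fold change 0.44, limma p = 0.0315, adjusted p = 0.992, exact permutation p = 0.1). *Lyz2* was no longer called with median centring of the libraries (0.38) or without control replicate 3 (0.47), C3G replicate 1 (0.42) or C3G replicate 3 (0.39). The summed level of the 3 macrophage markers with values, which include *Cd14* (0.27), was 33.8 to 43.1 FPKM in the controls and 48.4 to 57.2 FPKM with C3G, and *Lyz2* made up most of that sum. *Cd14*, at 1.59 to 2.099 FPKM in the controls and 1.65 to 2.85 FPKM with C3G, and *Cd68*, at 0.144 to 1.08 FPKM and 0.720 to 1.25 FPKM, overlapped between the groups and were not called. The part of these markers in the values of the coupling factors was not tested. Of the 12 osteoblast lineage genes 9 had values and 0 were called, with *Dlx5* at 0.38 and *Col1a1* at -0.53, or at 0.10 and 0.15 without control replicate 1.

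**Figure D4:**
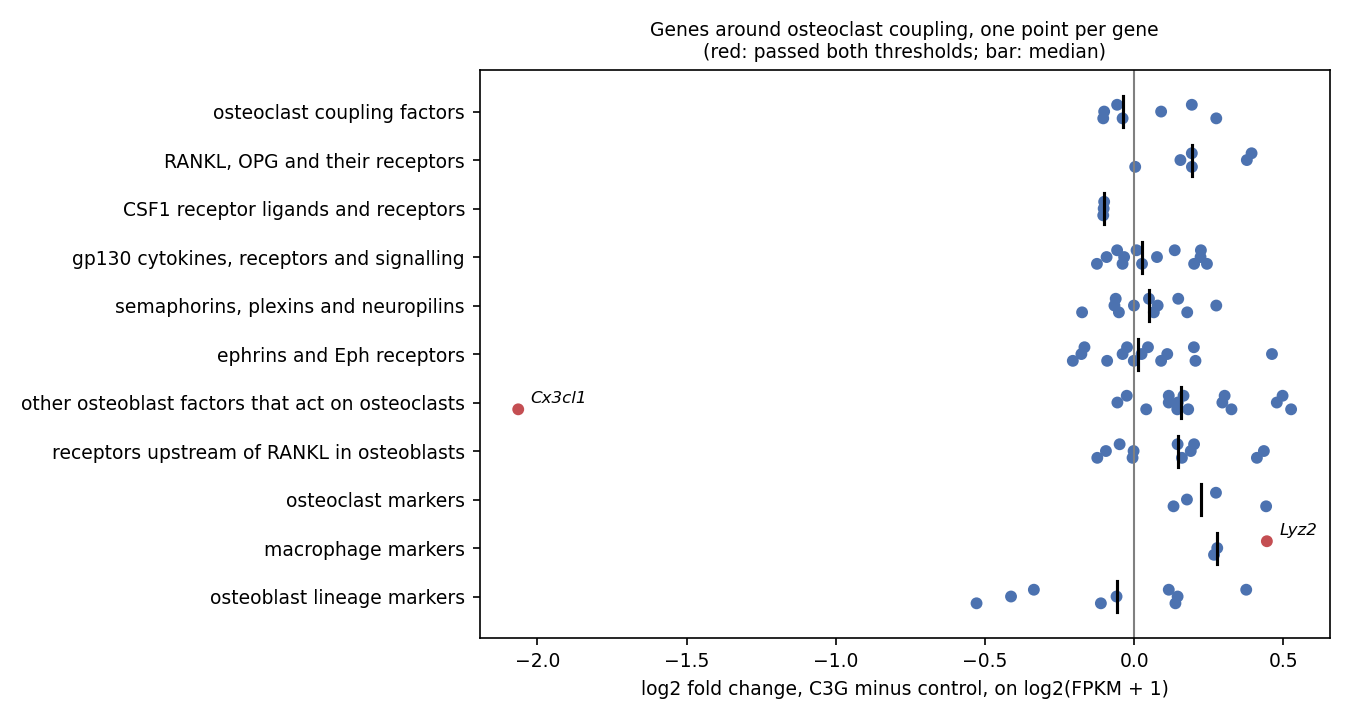
Log2 fold change (C3G minus control, on log2(FPKM + 1)) of every gene with values in the 7 coupling factors and 10 lists around them, 1 point per gene. Black bars are list medians and red points passed both thresholds. The red points are *Cx3cl1* at -2.06 and *Lyz2* at 0.44, and the 7 coupling factors lie between -0.10 and 0.27.

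The genes whose log2(FPKM + 1) followed these factors most closely over the 6 libraries were found by Pearson's r among 10464 genes with a mean of at least 1 FPKM. These 6 points share the departure of replicate 1, so r is given as a measure of likeness only. For *Tnfrsf11b* they were *Flrt2*, *Pdk4* and *Cd36* (r = 0.998 for each), and 1081 genes reached an r of 0.9 with it. For *Sema3a* they were *Thrap3* (r = 0.992), *Rab3gap2* (r = 0.991) and *Farp2* (r = 0.989), and 928 genes reached 0.9. For *Ephb4* they were *Cacfd1* (r = 0.998), *Wbp1* (r = 0.992) and *Tnip1* (r = 0.991), with 543 genes at 0.9 or more. *Efnb2* was followed by *Tgfbr3* (r = 0.992), *Tmem47* (r = 0.991) and *Ap4s1* (r = 0.990), with 647 genes at 0.9 or more. *Csf1* and *Il34* had far fewer close genes, 76 and 32. The closest to *Csf1* were *1700047I17Rik2* (r = 0.991), *Ndel1* (r = 0.987) and *Aagab* (r = 0.985), and the closest to *Il34* were *Pus7l* (r = 0.981), *2310034G01Rik* (r = 0.974) and *Ccnq* (r = 0.972).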

How the data were processed

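RNA of 3 control and 3 C3G-treated MC3T3-E1 samples was sequenced from stranded libraries, and the authors deposited FPKM values computed with Ballgown, 1 per gene in each library. The submitters' processing notes name cutadapt, HISAT2 2.1.0, StringTie, STAR 2.5.2b and the build hg19, with no role given. The identifiers are those of mouse genes, and 9828 of 11234 carry the version numbers of GENCODE M21 (GRCm38), from which positions and transcripts were taken. A symbol was matched for 11211 identifiers. Low values showed no steps of whole fragments: at the best step 18.5% to 19.5% of 200 low values in a library lay within 0.05 of a whole number, so the depth is unknown and no counting error can be given.

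Values were fitted as log2(FPKM + 1) with limma 3.58.1 in R 4.3.3 (lmFit, eBayes with trend), with group as the only term, over all 11234 genes without a filter. Fold changes on this scale understate the change of low genes. P values were two-sided and Benjamini-Hochberg adjustment covered every gene in the table. Named genes also had an exact permutation test (two-sided) on the difference of mean log2 values. The fit was tested on simulated data. Other steps used Python 3.11.15, pandas 2.3.3, numpy 2.4.6 and scipy 1.17.1.

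Same-numbered libraries deviated alike from the means of their groups (r across genes 0.653, 0.580 and 0.440, against -0.640 to 0.307 for different numbers), so the numbers of the sample titles were taken as pairs for the replicate block. The labels do not state this pairing, and it was read from the same values to which the block was applied. The intervals with the block hold only if the pairing is real. Named in the text were the listed factors, their direct receptors or ligand partners, and, in each list, called genes and the 3 with the smallest p at a mean of at least 1 FPKM. For each factor at that mean the 3 genes with the highest r were also named. A gene that this rule names is not reported here. The factors and lists were chosen with earlier results of these data known. Alternatives are a pseudocount of 0.1, a filter at a mean of 1 FPKM, eBayes without trend, an ordinary linear model, that model with a library covariate (log2 values summed below the 75th percentile), quantile normalization, median centring, the ratio of mean FPKM, the replicate block, a GC correction (spline, 5 degrees of freedom) with and without the block, replicates 2 and 3 only, and leaving out each library.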

Additional observations from a re-analysis of the deposited data

How the results depend on the processing

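The count of 0 called coupling factors was the same in all 18 alternatives, including the replicate block, and with it no call among the 7 was changed. The filter at a mean of 1 FPKM left out *Lif*. The ratio of mean FPKM kept the p values of the main fit, so it could add no call among the 7. The count of all called genes, 73 with limma and group alone, moved by over 1.5 times with an ordinary linear model (48), the replicate block (169), the GC correction (135), both together (246) and replicates 2 and 3 only (191), and it was 40 to 144 when single libraries were dropped (144 without control replicate 1, 127 without control replicate 2, and 45, 40 and 43 without C3G replicates 1, 2 and 3). The count of called genes in the lists, 2, was 1 with median centring and 1 to 3 when single libraries were dropped. Most differences of single genes were small, and some changed sign with the setting. With the library covariate the log2 fold change was -0.11 for *Tnfrsf11b*, -0.025 for *Efnb2*, 0.14 for *Ephb4*, -0.17 for *Lgr4*, -0.065 for *Il6st*, -0.044 for *Lifr*, -0.044 for *Nrp1*, 0.13 for *Efnb1*, -0.017 for *Tnfrsf23*, 0.075 for *Sdc1*, -0.054 for *Jak2*, -0.043 for *Nrp2*, 0.10 for *Plxnd1* and -0.041 for *Epha4*. With replicates 2 and 3 only it was 0.013 for *Lif*, -0.032 for *Efnb2*, -0.063 for *Lgr4*, -0.34 for *Il6st*, 0.085 for *Efnb1*, -0.057 for *Tnfrsf23*, 0.0084 for *Sdc1*, -0.022 for *Cxcl12*, -0.014 for *Il1r1*, -0.063 for *Ctsk* and -0.080 for *Nfatc1*. With quantile normalization it was -0.0046 for *Efnb2*, -0.017 for *Il6st* and -0.0036 for *Nrp1*. With the GC correction alone, and likewise together with the block, it was 0.066 for *Ephb4*, -0.026 for *Il6st* and -0.13 for *Nrp1*. With median centring it was -7.8e-05 for *Nrp1* and -0.041 for *Ephb3*. With the ratio of mean FPKM it was -0.035 for *Ephb3*. With each library left out in turn it was -0.19 to 0.52 for *Tnfrsf11b*, -0.27 to 0.054 for *Csf1*, -0.13 to 0.0028 for *Lif*, -0.053 to 0.59 for *Sema3a*, -0.060 to 0.23 for *Efnb2*, -0.22 to 0.18 for *Ephb4*, -0.25 to 0.37 for *Lgr4*, -0.15 to 0.43 for *Il6st*, -0.10 to 0.45 for *Lifr*, -0.066 to 0.16 for *Nrp1*, -0.42 to 0.22 for *Efnb1*, -0.20 to 0.019 for *Ephb2*, -0.30 to 0.38 for *Ephb3*, -0.010 to 0.30 for *Tnfrsf10b*, -0.15 to 0.71 for *Tnfrsf23*, -0.23 to 0.11 for *Sdc1*, -0.11 to 0.40 for *Jak2*, -0.090 to 0.37 for *Nrp2*, -0.37 to 0.17 for *Plxnd1*, -0.096 to 0.41 for *Epha4*, -0.037 to 0.26 for *Il1r1*, -0.055 to 0.45 for *Ctsk*, -0.025 to 0.22 for *Nfatc1* and -0.96 to 0.15 for *Col1a1*. The cause of these changes was not tested. *Il34* kept its sign in all 18 alternatives, from -0.21 to -0.0015. The printed intervals give the precision that 3 libraries a group allow.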
